A study of Sus scrofa with 599 samples.

Results

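Of 22783 autosomal enhancer regions marked by H3K27ac in the greater omentum (GOM) of pigs after weight loss, 1533 (6.73%) overlapped a region in each of 3 tables from weight-gain pigs and no region in the table from normal-diet pigs. These gained and kept regions covered 11 Mb. The regions were chosen by presence or absence in the 5 omental H3K27ac tables alone, with 1 shared base counting as an overlap. The signal of those tables is therefore described here without a test, while RNA-seq and Hi-C of the same depot took no part in the choice of regions, apart from the forming of the weight-gain subgroups on RNA-seq, and were tested.

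Enhancers are stretches of DNA that bind transcription factors and raise the transcription of genes that can lie far away. Acetylation of lysine 27 on histone H3 marks active enhancers and promoters, and long stitched stretches with very high signal are called super-enhancers. The greater omentum is a visceral fat apron in the abdomen, made of adipocytes with vessels, immune cells, fibroblasts and a mesothelial cover, and it expands in obesity.

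All animals were adult female miniature pigs of the Bama breed. Normal condition (NC) pigs ate a normal diet, weight gain (WG) pigs a high-fat diet, and weight loss (WL) pigs a high-fat diet followed by strong caloric restriction. The omental H3K27ac tables pooled 3 NC libraries, 3, 5 and 7 libraries of the WG subgroups 1, 3 and 5, and 4 WL libraries, while RNA-seq held 9 NC, 45 WG and 10 WL libraries and Hi-C 9, 46 and 10 samples. The study formed the WG subgroups by clustering samples on the shares of adipocytes, macrophages and microvascular endothelial cells estimated from RNA-seq, and each H3K27ac table pools its libraries, so a region has 1 value per table and no replicate error. The 3 diets were measured in different animals, so that gained and kept describe tables of groups and not the same pig followed over time.

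The NC table differed in make-up from the other omental tables. The 4 NC tables of all depots held 0 unstitched regions, against 13.7% to 33.4% in the 14 WG and WL tables. Unstitched means here that the name of a region lacks the label of stitching, which regions of 1 peak can also carry. Regions that lay wholly within 2 kb of a RefSeq gene start made up 4.97% of the NC table of the omentum and at most 0.871% of any WG or WL table. Among 3616 NC regions absent from all WG and WL omental tables, 52.0% held a gene start and 90.1% were made of 1 peak. The part of this difference in the choice of the 1533 regions was not tested.

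The sequences below come from the pig reference genome Sscrofa11.1, read on the plus strand. The central 200 bases are printed for 4 of the 5 gained and kept regions made of 1 peak with the most H3K27ac signal per kb less input, because they are among the strongest by density. Capitals mark matches on either strand to 10 short motifs of adipose and immune transcription factors, and a stretch without capitals held none.
Region near GRM4, chr7:30178701-30178900: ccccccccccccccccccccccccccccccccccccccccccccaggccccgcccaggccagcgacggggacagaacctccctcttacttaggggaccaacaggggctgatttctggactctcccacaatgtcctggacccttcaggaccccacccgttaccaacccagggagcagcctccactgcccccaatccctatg
Region in USP48, chr6:79750401-79750600: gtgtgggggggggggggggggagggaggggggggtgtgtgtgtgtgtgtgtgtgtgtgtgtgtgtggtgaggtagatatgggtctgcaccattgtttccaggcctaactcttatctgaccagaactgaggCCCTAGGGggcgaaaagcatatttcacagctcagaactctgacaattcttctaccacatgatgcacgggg
Region nearest start LOC102158534, chr1:243078901-243079100: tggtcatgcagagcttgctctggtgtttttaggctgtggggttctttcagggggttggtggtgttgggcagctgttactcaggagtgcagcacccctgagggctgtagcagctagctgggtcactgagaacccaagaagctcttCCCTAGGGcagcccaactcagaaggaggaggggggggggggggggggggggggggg
Region in SMYD3, chr10:18693301-18693500: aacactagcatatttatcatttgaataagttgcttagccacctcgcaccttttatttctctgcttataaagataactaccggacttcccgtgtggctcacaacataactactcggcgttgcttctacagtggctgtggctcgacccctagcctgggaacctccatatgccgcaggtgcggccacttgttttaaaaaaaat
All of these regions were short, at 200 or 400 bases. Long runs of a single base stood in 3 of them, with 44 C in the stretch near GRM4, 27 G in the stretch on chromosome 1, and 17 G in USP48, which encodes a deubiquitinase. The region in SMYD3, which encodes a lysine methyltransferase, had the highest input of these 4, at 1208 per kb, against 144 for the median gained and kept region. Their H3K27ac signal less input ranged from 742 to 1150 per kb. In the WG tables the region near GRM4, a glutamate receptor gene, had only 47.3 to 144 per kb less input, so that its high density was seen in the WL table and in no other omental table. Of 75 gained and kept regions of 1000 bases or less, 20 (26.7%) held a run of at least 15 equal bases, and so did 64 of 325 such regions (19.7%) of the whole WL table.

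Among the 1533 regions, 2 carried the super-enhancer mark. Both were made of 1 peak and were unstitched by name. The NC tables held regions of 1 peak, but none that was unstitched by name. The middle 200 bases of both are shown, since they are the strongest gained and kept regions by total signal.
Region between KDM2A and RHOD, chr2:5373601-5373800: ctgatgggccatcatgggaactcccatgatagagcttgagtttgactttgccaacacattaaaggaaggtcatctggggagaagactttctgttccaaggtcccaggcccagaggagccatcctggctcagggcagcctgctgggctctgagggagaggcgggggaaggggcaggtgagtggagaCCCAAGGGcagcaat
Region nearest start LOC110255953, chr12:3720701-3720900: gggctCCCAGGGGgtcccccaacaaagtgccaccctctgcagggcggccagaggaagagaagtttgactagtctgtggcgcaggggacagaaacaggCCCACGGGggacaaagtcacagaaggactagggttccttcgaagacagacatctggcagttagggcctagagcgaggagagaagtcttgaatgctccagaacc
The first lies at chr2:5352401-5395000, overlapping KDM2A, which encodes a histone demethylase, and RHOD, which encodes a small GTPase. It had 445 per kb of H3K27ac less input after weight loss and 183, 254 and 426 per kb in WG subgroups 1, 3 and 5. The second, at chr12:3707401-3734200, had 674 per kb after weight loss and 263 to 360 per kb in the WG tables. Signal was not brought to 1 scale between tables. The WG regions they overlapped ranked 643, 1192 and 2888 for the first and 1365, 677 and 719 for the second, beside 1287 and 1375 in WL. Both overlapped regions of the NC tables of the 3 other depots, so that neither was absent from normal-diet fat as a whole.

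Most gained and kept regions were short and weak. Their median length was 4600 bases, with quartiles of 2400 and 8800, against 16800 bases for the 14572 omental regions shared by NC, all 3 WG tables and WL. A single peak made up 1251 of them (81.6%), compared with 54.7% of the shared regions. The median H3K27ac signal less input was 113 per kb after weight loss, 154 per kb in the shared regions and 129 per kb over all WL regions. In the WG tables the overlapping regions had medians of 68.4, 75.6 and 68.8 per kb in subgroups 1, 3 and 5. Signal was not brought to 1 scale between tables, here or for single regions, so a lower value in WG is not a weaker region. By median rank they stood at 16811 of 23385, 14246 of 22471 and 15232 of 25819 in these subgroups, and at 15685 of 22783 in WL. Signal did not exceed input in 3 gained and kept regions. The lowest value, -8.40 per kb, belonged to chr3:44205001-44220800 beside ZC3H8 and FBLN7. The next lay at chr1:26796401-26807200 over the start of OLIG3, with -1.5 per kb. Another, at chr6:2870601-2885400 with IRF8 as the nearest gene start, had -1.40 per kb.

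**Figure D1:**
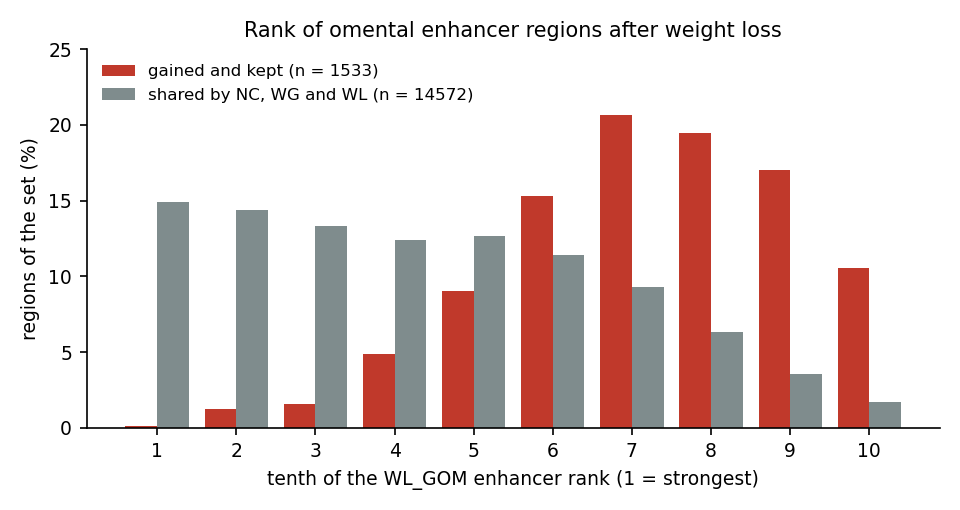
Share of gained and kept regions (red) and of regions shared by all omental tables (grey) in 10 equal classes of the WL rank, where class 1 holds the strongest regions by total signal. Of the gained and kept regions 0.130% were in class 1 and 20.7% in class 7, while class 1 held 14.9% of the shared regions.

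By rank, only 2 gained and kept regions stood in the strongest of 10 equal classes of the WL table, and 317 (20.7%) in class 7. The median rank was 15685 of 22783. Rank is by total signal, of which a longer region collects more at equal density.

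The edges of the rule were as follows. The smallest overlap with a WG region was 200 bases, and 155 regions (10.1%) overlapped a WG table by 1000 bases or less. Just outside the rule, 145 WL regions found in all WG tables overlapped an NC region by 1000 bases or less. The nearest NC region of the omentum lay a median of 17000 bases away, with quartiles of 6000 and 38000. Beyond the stitching distance from any NC region lay 950 of the 1533.

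Gained and kept regions were spread over all 18 autosomes. Chromosome 6 held the most, 207, which was 9.77% of its WL regions. Chromosome 12 was the densest, with 15.6 regions per 10 Mb, and chromosome 16 the sparsest, with 3.63. Another gained and kept region lay within 50 kb of 442 of them (28.8%). The midpoint was between genes in 45.4%, in an intron in 44.6% and in an exon in 10.0%. A RefSeq gene start lay inside 9.72% of the regions, against 31.9% of the shared ones, which are longer.

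The same regions were often marked in other fat depots of normal-diet pigs. Of the 1533, 68.3% overlapped an NC region of retroperitoneal fat (RAD), 48.6% one of the upper layer of backfat (ULB) and 36.3% one of mesenteric fat (MAD). For the shared regions these shares were 78.4%, 76.6% and 81.7%. Only 316 gained and kept regions (20.6%) were absent from the NC tables of all 4 depots, and 354 (23.1%) were present in the NC tables of all 3 other depots. Their median lengths were 3000 and 7300 bases. After weight loss, 84.5% overlapped a region of MAD, 83.0% one of ULB and 72.3% one of RAD. Only 45 regions (2.94%) were found in no table of another depot, and 186 (12.1%) in all 13.

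**Figure D2:**
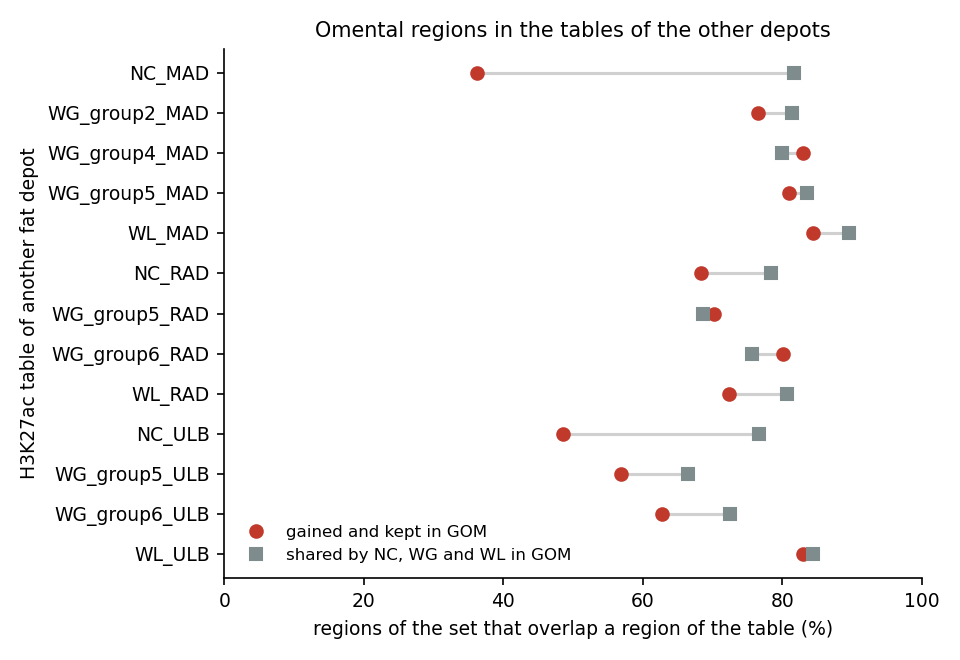
Share of gained and kept omental regions (red circles) and of shared omental regions (grey squares) that overlap a region in each of 13 H3K27ac tables of other depots. The widest gap was in the NC table of MAD, 36.3% against 81.7%.

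The pattern of absence in NC and presence in WG and WL recurred in another depot for some regions. MAD shared it for 530 regions (34.6%), ULB for 187 (12.2%), RAD for 172 (11.2%), and 17 regions showed it in all 3. Applied in the other depots, the same rule chose from the WL tables of MAD, RAD and ULB 2564 regions (10.1%), 1306 (5.98%) and 1302 (5.14%). For the last 2 depots it had 2 WG tables to meet and for GOM and MAD 3, and the NC tables of MAD, RAD and ULB pooled 1, 2 and 3 libraries, so these numbers are not on the same footing. Each value given for absence in normal-diet MAD rests on that 1 library. The NC tables of all depots also shared the make-up given above, with 4.55% to 6.58% of regions wholly within 2 kb of a gene start. Absence in the NC table of another depot may thus not be independent of absence in that of the omentum. The part of this in the recurrence was not tested.

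Base composition, which the rule did not use, differed from that of the other omental regions. In the central 1000 bases of 1-peak regions of at least that length, the median share of G and C was 55.7% in 1207 gained and kept regions. It was 47.5% in 7932 shared regions and 47.4% in 15032 WL regions of all kinds. Over 55% G and C was found in 52.5% of the gained and kept windows, 24% of the shared and 24.8% of all. The median number of CpG dinucleotides was 26, against 16 and 15. These values are descriptions with no test, since windows of a genome are not independent replicates. Without regions that hold a gene start, the medians were 55.1% for gained and kept and 46.2% for all WL windows.

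The NC table of the omentum was itself low in G and C where gene starts were set aside. Its median there was 44%, compared with 46.2% in WL and 46.4% to 47.8% in the WG tables. Gained and kept regions absent from the NC table of MAD had a median of 57.9%, and those present there 50.9%. For the NC table of RAD, whose own windows without a gene start had 47.9%, the medians were 55.6% when absent and 55.8% when present. For the NC table of ULB they were 56.9% and 53.9%. The part of base composition in the choice of regions was not tested. Regions chosen by the same rule in MAD, ULB and RAD had medians of 54.3%, 51.9% and 49%.

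**Figure D3:**
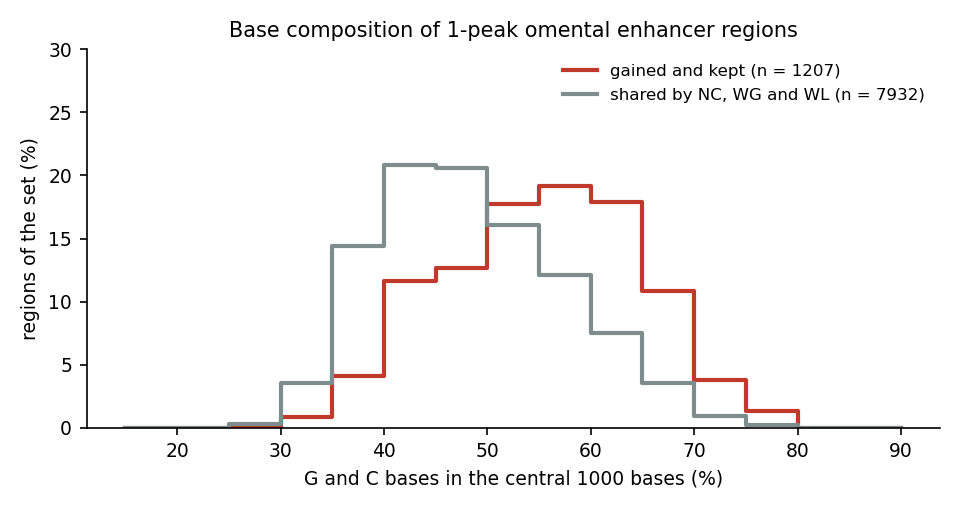
Distribution of the share of G and C bases in the central 1000 bases of 1-peak gained and kept regions (red, n = 1207) and shared regions (grey, n = 7932), in bins of 5 percentage points. The median was 55.7% in the former and 47.5% in the latter.

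Motif letters were counted in all windows and in those of like composition. CCCNNGGG, the letters bound by EBF factors, which take part in adipocyte and B cell development, stood in 52.9% of the gained and kept windows and 34.1% of all WL windows, counted on both strands. Of windows over 55% G and C, 73.7% and 70.8% held them. TGANTCA of AP-1 was in 22.1% and 28%, TTGCNNAA of C/EBP in 29.9% and 37.7%, and GAAANNGAA of IRF in 23.7% and 31.6%. Above 55% G and C these 3 were in 17% and 18.1%, 21.9% and 21.9%, and 13.7% and 15.2%. Shares for gained and kept and all WL windows were 15.5% and 18.6% for TGTGGTT of RUNX, 6.55% and 6.63% for GAGGAAGT of PU.1, and 3.15% and 4.88% for AAAGGTCA of nuclear receptors. They were 20.3% and 22.9% for ACANNNTGT of the glucocorticoid receptor, 13.3% and 15.3% for CATTCCA of TEAD, and 0.746% and 0.792% for TGACGTCA of CREB. A match of letters is not a bound site.

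The 10 gained and kept regions with the best rank had ranks of 1287 to 3190 and lengths of 17600 to 60200 bases. All 10 overlapped NC regions of the 3 other depots, and 8 held a gene start. The nearest omental NC region lay 1400 to 53600 bases from them, which for some is within the distance over which peaks were stitched. Of these 10, 7 were unstitched regions, a kind the NC tables did not hold.

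Besides the 2 super-enhancers, 2 regions lay among several genes. The region chr3:40183201-40210400 held 5 gene starts and the whole of NME3, a nucleoside diphosphate kinase gene, and of MRPS34 of the mitochondrial ribosome. SPSB3 and EME2 lay inside it too, and NUBP2 of iron-sulfur protein assembly and MAPK8IP3 overlapped it in part. IGFALS, whose product stabilises circulating insulin-like growth factors, lay outside it within 10 kb. Its signal was 399 per kb less input after weight loss and 232 to 323 in the WG tables. The region chr13:122256001-122290400 held the whole of CHRD, a secreted inhibitor of bone morphogenetic proteins, and of THPO, the thrombopoietin gene. It overlapped the end of POLR2H, a subunit of the RNA polymerases, and lay within 10 kb of CLCN2, a chloride channel gene. It had 315 per kb after weight loss and 175 to 208 in the WG tables.

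The other 6 lay at chr9:6081601-6120600 within STIM1, at chr1:165801801-165862000 with SKOR1 as the nearest start, and at chr9:3438401-3472600 over the start of CNGA4. They continued with chr11:78585801-78605200 overlapping CUL4A and LAMP1, chr6:53127201-53161200 over DHX34 and beside C5AR2, and chr3:33642401-33660000, whose nearest start was C3H16orf72. Their signal less input ranged from 180 to 492 per kb.

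A gene was linked to a region where its body, with a flank of 10 kb, overlapped it. By this rule 947 gained and kept regions (61.8%) were linked to 1015 protein-coding genes (PCGs), and 636 of those genes (62.7%) were linked to a shared region as well. RefSeq symbols placed 13052 of 21280 PCGs, so that genes without a placed symbol could not be linked. RNA-seq libraries held 7.84 to 17.5 M counts on PCGs in NC, 3.34 to 20.9 in WG and 10.2 to 19.1 in WL. Libraries were split at a PCG share of 88% of summed TPM, the length-scaled transcript level. In the lower set were 7 of 9 NC, 3 of 45 WG and 6 of 10 WL libraries. The WL libraries had no gap at this limit, with 87.95% in replicate 5 and 88.1% in replicate 7. In the higher set, NC libraries had 95.6% and 96.0% and WL libraries 88.1% to 91.4%. Fits by library set therefore did not match NC and WL libraries in this share. Library set and diet were thus mixed in every comparison, in WL against WG as in those with NC. In bulk tissue, fewer cells of a type and less RNA per cell cannot be told apart.

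The shares of linked genes that rose lay near those of all genes tested. In WG against NC, 725 of the 1015 linked genes passed the filter on low expression, and 96 of them (13.2%) were higher in WG by edgeR at a fold change over 1.5 and an adjusted p under 0.05, against a background of 12.2% of all genes tested. There were 50 (6.90%) lower, against 14.5% of all and 8.58% of genes placed on an autosome. In WL against NC, 116 of 743 (15.6%) were higher and 115 (15.5%) lower, with backgrounds of 15.4% and 20.6%. In WL against WG, 12 of 735 (1.63%) were higher and 16 (2.18%) lower, with backgrounds of 2.54% and 2.71%. The median log2 fold changes were 0.01, -0.00 and -0.04, against 0.00, -0.01 and -0.04 over all genes tested. Genes placed on an autosome, which alone could be linked, were lower in 15.2% and higher in 16.4% in WL against NC. With only the libraries of the higher set, 2 of NC and 42 of WG, 16 linked genes (2.21%) were called in WG against NC, 12 higher and 4 lower, against 2.65% of all genes tested. Of the genes named below, ALDH1A3 and NUBP2 alone kept their call in WG against NC there.

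Some linked genes stood clearly higher after weight loss than on the normal diet. GPR153, an orphan G protein-coupled receptor gene, lies inside the region chr6:67134801-67166600. It had 3.03 to 6.59 TPM in NC, with a median of 4.31, and 16.9 to 27.7 in WL, with a median of 23.6. The groups did not overlap, and the log2 fold change was 2.07 ± 0.12 (SE, edgeR adjusted p = 1.53e-10). In WG it ranged from 3.65 to 95.6 TPM with a median of 12.7, so that WG overlapped both. GPR153 was called in WG against NC as well, at 1.47 ± 0.33 (adjusted p = 0.000534).

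Of the 7 genes linked to the chr3:40183201-40210400 region, NME3, MRPS34 and NUBP2 rose in WL against NC. NME3 had 0.398 to 4.61 TPM in NC (median 2.98), 0.391 to 168 in WG (median 9.67) and 8.91 to 28.1 in WL (median 18.7). NC and WL did not overlap, and the log2 fold change was 2.64 ± 0.35 (edgeR adjusted p = 2.33e-06). MRPS34 rose by 1.10 ± 0.11 (adjusted p = 4.93e-08), from a median of 13.2 to 35.4 TPM, and NUBP2 by 1.26 ± 0.21 (adjusted p = 3.04e-05), from 9.41 to 26 TPM, both without overlap of NC and WL. These 3 were also called in WG against NC, at 2.26, 1.00 and 1.07. The WG maximum of all 3 came from replicate 35, the library with the fewest counts, and without it the change of NME3 in WG was 1.82. EME2 at 0.41 and SPSB3 at 0.45 in WL against NC had adjusted p = 0.0214 and 0.00403 but stayed under the fold limit, while MAPK8IP3 at 0.24 and IGFALS at 0.70 had adjusted p = 0.112 and 0.114.

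At the chr13:122256001-122290400 region, POLR2H had 10.2 to 15.7 TPM in NC and 21.2 to 40.03 in WL, again without overlap. It rose by 0.79 ± 0.12 (edgeR adjusted p = 7.07e-06). CHRD rose by 0.69 ± 0.18 (adjusted p = 0.00321) from a median of 1.59 to 3.11 TPM. THPO fell in WG against NC, by 0.80 on the log2 scale (adjusted p = 0.000833), and CLCN2 was called in none of the 3 comparisons. Of the genes at the super-enhancer of chromosome 2, RHOD rose by 0.69 ± 0.21 in WL against NC (adjusted p = 0.0086), from a median of 6.56 to 12.2 TPM, and KDM2A had -0.16 ± 0.10 (adjusted p = 0.156).

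Single genes linked to the other best ranked regions were mostly not called. STIM1, the calcium sensor of the endoplasmic reticulum, fell by 0.59 in WL against NC (edgeR adjusted p = 0.00536), from a median of 17.6 to 14.9 TPM with overlap. CUL4A, LAMP1, C5AR2 and DHX34 passed the threshold in no comparison, and CNGA4 did not pass the filter, with 0.514 TPM as its NC median. Their log2 fold changes in WL against NC were -0.03, 0.08, 0.25 and -0.16.

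Further genes rose in WL against NC without overlap of the libraries. SUGCT, a mitochondrial CoA transferase gene linked to 5 gained and kept regions, had 18.7 to 39.3 TPM in NC and 74.4 to 182 in WL, and rose by 1.52 ± 0.17 (edgeR adjusted p = 2.84e-07). TEK, the angiopoietin receptor gene of endothelial cells, had 39.6 to 61.2 TPM in NC and 69.9 to 141 in WL, and rose by 0.67 ± 0.13 (adjusted p = 0.000137). Both were called in WG against NC, at 1.00 and 0.60 (0.40 for TEK with library set as a term, adjusted p = 0.146), and in WL against WG neither was, at 0.52 (adjusted p = 0.108) and 0.07 (adjusted p = 0.84). GDF6, a ligand of the bone morphogenetic protein family, rose from a median of 0.110 to 1.15 TPM, by 2.94 ± 0.48 (adjusted p = 2.75e-05). EPHB6, an Eph receptor gene, rose by 1.68 ± 0.30 (adjusted p = 6.37e-05), and TUB by 1.37 ± 0.20 (adjusted p = 6.75e-06).

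Other genes rose with overlap of NC and WL libraries. FCN2 encodes a ficolin, a lectin of the complement system, and had 3.56 to 11.4 TPM in NC (median 7.26), 1.12 to 79.5 in WG (median 27) and 2.84 to 152 in WL (median 64.7). It rose in all 3 comparisons, by 1.76 in WG against NC, 2.94 in WL against NC and 1.19 in WL against WG (edgeR adjusted p = 0.00069, 1.44e-05 and 0.0147). SULT2B1, a sterol sulfotransferase gene, rose by 1.93 ± 0.43 in WL against NC and TMEM198 by 1.79 ± 0.40. ALDH1A3 of retinoic acid synthesis rose by 1.49 in WG and 1.15 in WL against NC, APOE of lipid transport by 1.63 and 1.20, HES2 by 1.62 and 1.39, and BRSK2 by 2.22 and 1.05. Without WG replicate 35 the changes of ALDH1A3, APOE and HES2 in WG against NC were 1.475, 1.385 and 1.35. That of BRSK2 was 1.18 (adjusted p = 0.0121), and with library set as a term BRSK2 was not called in WL against NC (adjusted p = 0.0696).

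**Figure D4:**
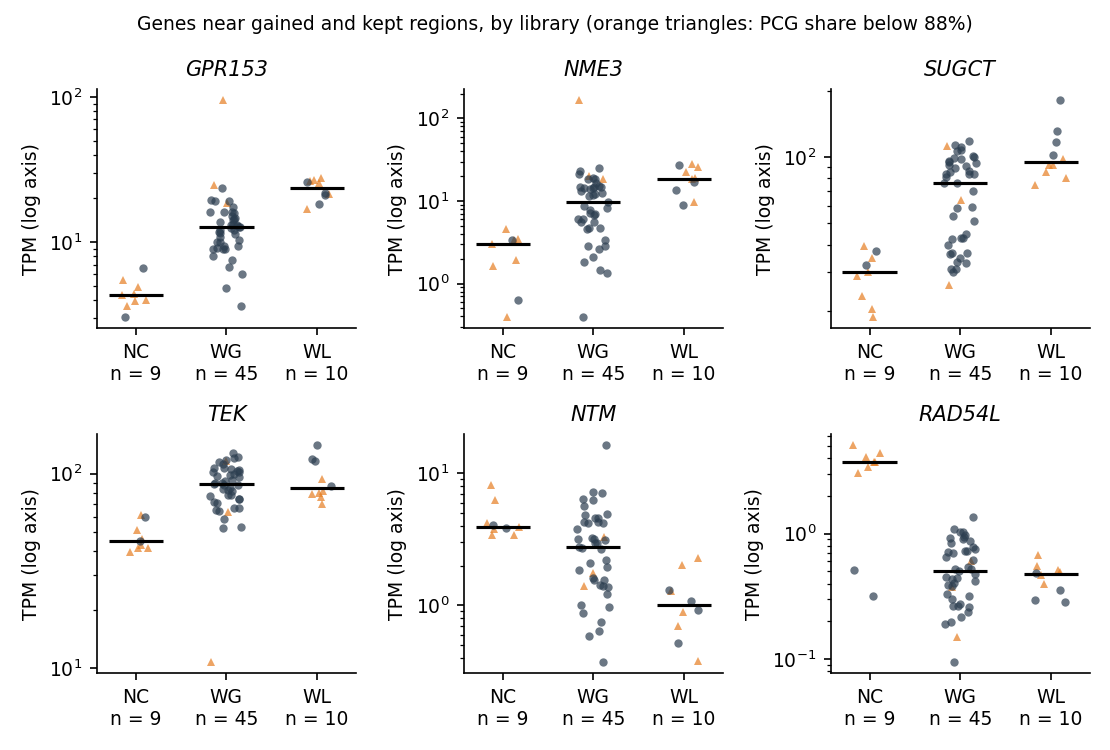
TPM on a log axis of 6 genes linked to gained and kept regions in each RNA-seq library of NC, WG and WL, with group medians as bars and libraries with a PCG share below 88% as orange triangles. NC and WL do not overlap for GPR153, NME3, SUGCT, TEK and NTM, while RAD54L is high only in the 7 NC libraries of the lower set.

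Among the genes that fell in WL against NC, NTM, a neural cell adhesion gene, had no overlap. It had 3.4 to 8.13 TPM in NC (median 3.95), 0.370 to 16.5 in WG (median 2.79) and 0.381 to 2.28 in WL (median 0.999). The log2 fold change was -2.34 ± 0.27 in WL against NC and -1.57 ± 0.39 in WL against WG (edgeR adjusted p = 4.57e-07 and 0.0058). TRIM66 fell by 2.12 (adjusted p = 2.72e-05), from a median of 9.28 to 2.11 TPM with overlap. MYO1D, a myosin gene, fell by 1.14 in WG and by 1.08 in WL against NC.

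For several of the largest falls against NC, the high NC values came only from libraries of the lower set. RAD54L, a DNA repair gene, had 3.04 to 5.12 TPM in the 7 NC libraries below 88% and 0.316 and 0.511 in the other 2, against 0.285 to 0.678 in WL. OCIAD2 had 31.6 to 52.6 TPM in those 7, 2.93 and 3.76 in the other 2, and 3.57 to 15 in WL. The fitted changes in WL against NC were -3.10 and -2.07 (edgeR adjusted p = 1.79e-06 and 0.000468), and with the higher set alone -0.40 (adjusted p = 0.462) and 1.49 (adjusted p = 0.027). STKLD1, CLVS1, a clavesin gene, and SLC13A5, a citrate transporter gene, showed the same split, with NC medians of 4.73, 25.5 and 1.56 TPM in the lower set and 0.705, 6.27 and 0.367 in the higher. XRRA1 and SOX10, a transcription factor gene of neural crest cells, fell by 1.12 and by 1.97 in WL against NC, and had -0.44 (adjusted p = 0.19) and -0.53 (adjusted p = 0.387) in the higher set. CHRD, RHOD, STIM1, EPHB6, SULT2B1 and MYH11 kept their direction there, with adjusted p = 0.263, 0.0705, 0.0775, 0.053, 0.087 and 0.0889, and 2 NC and 4 WL libraries in the fit.

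Few linked genes differed between WL and WG. GNAZ, a G protein subunit gene, had 3.48 to 9.17 TPM in NC, 2.32 to 17 in WG (median 5.06) and 9.23 to 22.3 in WL (median 14.2), and rose by 1.40 ± 0.17 (edgeR adjusted p = 6.56e-08). WL overlapped WG but not NC. IGFALS rose by 1.15, EPHA1 by 1.02, C5 of the complement cascade by 1.02, TUB by 0.74, HPSE, the heparanase gene, by 0.73 and RNF144B by 0.72. C5 had medians of only 1.55 TPM in WG and 2.23 in WL, with 21.3 in WL replicate 10, and no fit left that library out. EPHA1 lay near the filter of 0.5 TPM, with medians of 0.381 in WG and 0.754 in WL. With library set as a term, IGFALS at 0.81 (adjusted p = 0.109), TUB at 0.48 (adjusted p = 0.126) and HPSE at 0.23 (adjusted p = 0.694) lost the call. In the higher library set alone HPSE had -0.04 (adjusted p = 0.966), EPHA1 0.88 (adjusted p = 0.118) and RNF144B 0.61 (adjusted p = 0.134).

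The falls from WG to WL were led by KLHL31, with 15.2 to 174 TPM in WG (median 70.4) and 3.25 to 59.5 in WL (median 15.1). It fell by 1.96 on the log2 scale (edgeR adjusted p = 0.000169) after a rise of 1.18 in WG against NC. The region linked to KLHL31, chr7:27101001-27117200, had only 2.7 per kb of H3K27ac less input, at rank 22728 of 22783. CBS, an enzyme of cysteine synthesis, fell by 1.67 (adjusted p = 8.63e-05), KCP by 1.58, ALPL, an alkaline phosphatase gene, by 1.58, STUM by 1.45 and TGM3 by 1.28. With library set as a term, ALPL (adjusted p = 0.156) and TGM3 (adjusted p = 0.0971) lost the call, and in the higher set alone ALPL (adjusted p = 0.297) and KCP (adjusted p = 0.208) did. KLHL31, KCP and STUM had risen in WG against NC, by 1.18, 1.26 and 0.72. Their WL medians of 15.1, 0.906 and 3.5 TPM stood beside NC medians of 18.7, 0.906 and 5.27.

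Of 140 placed genes in 15 lists of adipose pathways and cell types, 11 (7.86%) were linked to a gained and kept region, close to the 7.78% of all placed PCGs. Of matrix remodelling, MMP9, a metalloproteinase gene, rose by 1.57 ± 0.59 in WG against NC (edgeR adjusted p = 0.03), and SPARC was not called. With library set as a term the change of MMP9 was 0.85 (adjusted p = 0.391). PDK1, which restrains pyruvate oxidation in hypoxia, rose by 0.75 in WG against NC and fell by 0.78 in WL against WG (adjusted p = 0.00257 and 0.00302), with adjusted p = 0.288 and 0.24 in the higher library set alone. Its TPM ranged from 40.5 to 77.6 in NC, 53.4 to 199 in WG and 52.0 to 91.3 in WL. EBF1, a transcription factor gene of adipocyte development, fell by 0.77 in WL against NC (adjusted p = 0.0001), from a median of 142 to 93.1 TPM with overlap. MYH11 of smooth muscle fell by 0.96 in WL against NC (adjusted p = 0.00611), and C1QB of macrophages by 0.83 in WG against NC (adjusted p = 0.00204). STAT3, TREM2 and DES were not called in any comparison, TEK is given above, and GATA4 did not pass the filter, with at most 0.274 TPM in any library.

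The 6 pathway lists are given by counts over all their genes tested, in either direction beside 26.7% of all genes called in WG against NC, 36% in WL against NC and 5.25% in WL against WG. Of 12 matrix remodelling genes, 1 was higher and 1 lower in WG against NC, 0 and 1 in WL against NC, and 0 and 0 in WL against WG. Of 13 inflammatory signalling genes the same counts were 1 and 0, 1 and 1, and 0 and 0. Of 9 insulin and glucose handling genes they were 1 and 0, 0 and 2, and 0 and 1. They were 2 and 1, 1 and 1, and 0 and 1 for 6 hypoxia genes, and 1 and 1, 3 and 2, and 1 and 0 for 9 genes of the TGF-beta family. For 18 transcription factors of adipose tissue they were 3 and 2, 5 and 5, and 1 and 1.

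Cell type markers were counted in the same way, and the same shares of all genes stand beside them. Of 18 adipocyte genes, 9 were higher and 0 lower in WG against NC, 6 and 4 in WL against NC, and 0 and 6 in WL against WG. Their summed TPM ran from 8089 to 14270 in NC, 7079 to 33530 in WG and 7826 to 20000 in WL. None of the 17 placed adipocyte genes was linked to a gained and kept region. In the order of the same 3 comparisons, 12 progenitor and fibroblast genes had 3 and 0, 1 and 1, and 0 and 3, with sums of 2224 to 4970, 1214 to 8225 and 2675 to 4899 TPM. The 4 mesothelial genes found, of 9 listed, had 0 and 2, 0 and 0, and 1 and 0, with sums of 108 to 282, 57.2 to 728 and 99.3 to 682 TPM.

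Immune and vessel markers gave the following counts. The 9 macrophage genes had 0 and 1, 0 and 4, and 0 and 1, with summed TPM of 621 to 2369 in NC, 539 to 1961 in WG and 608 to 1637 in WL. The 10 lipid-associated macrophage genes had 3 and 0, 2 and 1, and 0 and 2, with sums of 2902 to 5175, 3358 to 9262 and 2603 to 5145 TPM. The 8 T and NK cell genes had 0 and 0, 2 and 0, and 0 and 0, with sums of 52.6 to 120, 26.3 to 184 and 57.7 to 156 TPM. Of 6 B and plasma cell genes, 3, 4 and 4 were tested and had 0 and 2, 1 and 0, and 0 and 0, with sums of 60.0 to 2348, 26.8 to 743 and 38.4 to 528 TPM. The 7 endothelial genes had 3 and 0, 3 and 2, and 0 and 0, with sums of 438 to 690, 567.6 to 2032 and 629 to 1097 TPM. The 6 smooth muscle and pericyte genes had 1 and 0, 1 and 2, and 0 and 1, with sums of 312 to 583, 77.5 to 1549 and 470 to 1271 TPM. For each of the 9 marker lists the ranges of the 3 diets overlapped. The part of these markers in the changes of linked genes was not tested.

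The Hi-C data gave a measure that neither the rule nor gene expression used. The A-B index has no unit, is positive in the active compartment A and negative in the inactive compartment B, and was given by the authors for bins of 20 kb. Each region took the bin of its midpoint, which gave 1482 bins. In NC, WG and WL their median index was 1.74, 2.09 and 2.32, and 73.1%, 77.1% and 78.1% of them were above 0, against 46.5%, 48.2% and 49.2% of all bins. Of the bins of shared regions, 78.6%, 80.4% and 81.8% were above 0, more than of the gained and kept bins.

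Against NC, bins of gained and kept regions were called higher more often than all bins were. By limma with an adjusted p below 0.05 and a difference above 0.75, 100 of 1482 (6.75%) were higher in WG than in NC and 0 lower, against 2.68% and 0.11% of all 113298 bins. In WL against NC, 294 (19.8%) were higher and 4 (0.270%) lower, against 9.59% and 0.516%. In WL against WG, 27 (1.82%) were higher and 6 (0.405%) lower, against 1.75% and 0.782%. Bins of shared regions, which are the nearer comparison, were higher in 4.62%, 16.5% and 2.82%. The index of all bins had median shifts of 0.14, 0.14 and 0.03 in these comparisons. Relative to them, the medians of gained and kept bins shifted by 0.12, 0.27 and 0.13, and those of shared regions by 0.04, 0.19 and 0.14. When samples were first brought to one distribution by quantile normalization, 40 bins were higher and 2 lower in WG against NC and 92 and 19 in WL against NC. All bins were then higher in 0.893% and 2.65% and lower in 0.398% and 1.16%. Bins of shared regions were higher in 1.455% and 4.3% and lower in 0.569% and 1.83%. For gained and kept bins the higher shares were 2.70% and 6.21%.

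**Figure D5:**
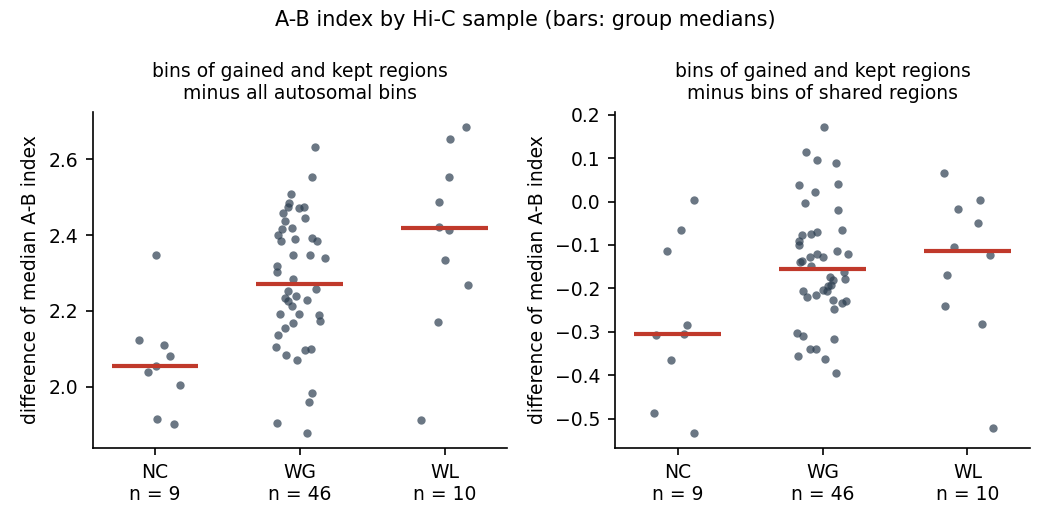
Difference between the median A-B index of bins with gained and kept regions and that of all autosomal bins (left) or of bins with shared regions (right) in each Hi-C sample, with bars at the group medians. On the left the medians were 2.05 in NC, 2.27 in WG and 2.42 in WL, and the samples of the 3 diets overlapped.

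By sample, the median index of gained and kept bins less that of all bins ran from 1.90 to 2.35 in NC, 1.88 to 2.63 in WG and 1.91 to 2.69 in WL. The 3 diets overlapped.

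Of the 10 best ranked regions, 3 lay in bins that were called in WL against NC. In that comparison 20.1% of all gained and kept bins and 10.1% of all bins were called. The bin of the chr13:122256001-122290400 region had 2.90 to 4.73 in NC (median 4.18), 4.15 to 6.07 in WG (median 4.94) and 4.52 to 6.18 in WL (median 5.49). It was higher by 1.00 ± 0.16 in WG and 1.53 ± 0.24 in WL than in NC (limma adjusted p = 5.33e-05 and 0.000738), and the samples overlapped. The bin of the region near SKOR1 exceeded NC by 0.81 ± 0.24 in WG and, after weight loss, by 1.17 ± 0.32 (adjusted p = 0.0224 and 0.0167), and that of the super-enhancer at KDM2A and RHOD by 0.77 ± 0.25 in WL (adjusted p = 0.0387). After quantile normalization the first kept its calls, the second had 0.59 and 0.73 (adjusted p = 0.0742 and 0.0946) and the last 0.34 (adjusted p = 0.26). The bin of the chr3:40183201-40210400 region, where NME3 and MRPS34 rose, differed by 0.02 ± 0.18 in WL against NC (adjusted p = 0.958).

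Bins of several other named genes were called. Those of GPR153 and HES2, both on chromosome 6, were higher by 0.83 ± 0.16 and 0.89 ± 0.14 in WG and by 1.31 ± 0.20 and 1.34 ± 0.18 in WL than in NC (limma adjusted p = 0.00046, 7.87e-05, 0.000661 and 0.000333). ALDH1A3 followed with 0.77 and 1.38. The bin of the TEK region was higher by 0.75 ± 0.14 in WG than in NC (adjusted p = 0.000396), and its means in NC, WG and WL were 0.134, 0.884 and 0.149. The WL mean of the bin was thus near that of NC, whereas the TPM of TEK was higher in WL than in NC. After quantile normalization, WG exceeded NC by 0.61, 0.67, 0.56 and 0.60 in the bins of GPR153, HES2, ALDH1A3 and TEK. These values lie under the size limit of 0.75, so the calls in WG against NC were lost. Bins of MYH11 and OCIAD2 were higher in WL than in NC, by 1.34 and 1.07. MYH11 was lower there, while the direction of OCIAD2 turned with the library set.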

How the data were processed

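H3K27ac tables were deposited with signal per region (IP and input, as reads per base scaled to library size, times region length) and a rank score. Per the labels and methods, the authors aligned reads with BWA (0.7.15), processed them with SAMtools (1.3.1), called peaks with SICER and kept those found in enough replicates, and stitched enhancers with ROSE. Signal of IP less input was divided by length here and given per kb of region. RNA-seq was deposited by the authors as TPM from kallisto (0.43.0), with expected counts summed to genes, run with the stranded option. The A-B index, a score, was deposited by the authors per 20 kb bin.

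Expected counts were rounded and tested with edgeR's quasi-likelihood test (4.0.16, R 4.3.3, TMM normalization) in PCGs above 0.5 TPM in at least 80% of a group, with the 2 groups of each comparison alone and Benjamini-Hochberg adjustment over all genes tested. The A-B index was tested with limma (3.58.1) over all autosomal bins. Tests were two-sided. The labels number libraries as replicates, so p-values measure the spread between these samples. The steps were tested on simulated data. Overlaps, windows and motifs were computed in Python 3.11.15 on Sscrofa11.1, and genes were placed by RefSeq symbol.

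The members and lists were chosen with earlier results of these data known. Named genes were those linked to the best ranked regions, the called linked genes with the largest changes in each comparison, and linked genes of the lists. Items that these rules name but that are withheld are not reported here. Of the expression tables, 2 omental RNA-seq columns matched no sample and were not used. Alternatives tried were DESeq2 (1.42.0), no expression filter, library set as a term, libraries of 1 set, a replicate block, other links, another overlap, quantile normalization and libraries left out.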

Additional observations from a re-analysis of the deposited data

Results flagged for a closer look

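Values of the named genes and bins were checked for a sample far from the rest of its group by Dixon's test, in groups of 9 or 10. Of 146 such tests 10 passed the 95% limit, and chance alone passes about 1 in 20. Gene values here are log2(TPM + 1). In WL, replicate 10 was far above the others for C5 at 4.48 (next 2.08), SLC13A5 at 1.73 (next 0.36) and GATA4 at 0.35 (next 0.17). Replicate 6 of WL was far below for FCN2 at 1.94 (next 4.98), HES2 at 2.01 (next 3.05) and MRPS34 at 4.83 (next 5.05). EPHB6 was high in WL replicate 8 at 3.35 (next 2.19). NC replicate 8 was high for TMEM198 at 0.94 (next 0.31) and TREM2 at 4.48 (next 3.22). In Hi-C, the bin of the super-enhancer region chr2:5352401-5395000 had an A-B index of 3.68 in WL replicate 10, below the next value of 4.69.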

How the results depend on the processing

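The number of gained and kept regions was 950 when no NC region was allowed within the stitching distance, 316 with none in any NC table, and 612 at or above the median signal per kb. It lay between 1135 and 2142 with wider overlap or 1 WG table dropped. For regions with the label of stitching alone, which include regions of 1 peak, it was 1093, an alternative chosen after seeing the data. Linked genes called in WG against NC, 146 by edgeR, were 231 with no filter (117 higher, 114 lower), 248 with library set as a term (165 and 83), 16 in libraries of at least 88% PCG share, which left 2 NC libraries, and 373 with a flank of 50 kb. As shares of the linked genes tested these were 22.8%, 34.2%, 2.21% and 22.7%, beside 28.7%, 34.7%, 2.65% and 26.7% of all genes. In WL against NC, 231 became 573 with that flank and 227 to 297 otherwise. The shares were 34.25% with that flank and 29.5% to 34.9% otherwise, beside 36% and 34.5% to 37.1% of all genes. In WL against WG, 28 became 43 with DESeq2 (15 higher, 28 lower), 47 with no filter (29 and 18), 13 in the higher library set (8 and 5) and 60 with the flank, or 5.85%, 4.63%, 1.77% and 3.61% beside 6.85%, 5.09%, 1.54% and 5.25% of all genes. Without WG replicate 35, also chosen after seeing the data, the counts were 139 in WG against NC and 38 in WL against WG (18 higher, 20 lower). These were 19.2% and 5.17% of the linked genes tested, beside 26.4% and 7.07% of all genes. Replicate numbers did not pair samples, since same-numbered samples had median correlations of -0.09 to 0.07 in RNA-seq and -0.08 to 0.05 in Hi-C. A replicate block keeps only numbers found in both groups, hence few WG samples. With it 18 linked genes were called in WG against NC (6 higher, 12 lower), 245 in WL against NC and 11 in WL against WG (7 and 4), or 2.48%, 33% and 1.5% beside 5.59%, 36.8% and 1.57% of all genes. Bins of the A-B index with that block numbered 0 in WG against NC and 0 in WL against WG by limma, where 290 and 296 had an unadjusted p below 0.05, and 264 in WL against NC. Of all bins, 0 were called in WG against NC and in WL against WG as well. The 290 and 296 were 19.6% and 20.0%, beside 10.0% and 20.6% of all bins. In WL against NC 17.6% were higher and 0.202% lower, beside 9.15% and 0.402% of all bins. With quantile normalization the bins were 42, 111 and 17 (7 higher, 10 lower in WL against WG). In WL against WG 0.472% were then higher and 0.675% lower, beside 0.582% and 0.291% of all bins. With no size limit 344, 400 and 255 bins were called, or 23.2%, 27% and 17.2% beside 11.6%, 14.5% and 18% of all bins. In the higher library set alone the direction turned for OCIAD2 (1.73 in WG and 1.49 in WL against NC), RAD54L (0.28 in WG), STKLD1 (0.23 and 0.43), CLVS1 (0.049 in WL), SLC13A5 (0.80 in WL) and HPSE (-0.035 in WL against WG). The cause of these changes was not tested. Of 86 called values of named genes, 22 kept their call under every alternative run. Depth limits genes near 0.5 TPM, and pooled tables give regions no error.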

Other observations

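The genes with the most gained and kept regions were picked after their values were seen. GSE1, which spans 413.5 kb of chromosome 6, was linked to 9 of them. Its TPM ran from 9.34 to 17 in NC (median 12.0), 3.34 to 45.1 in WG (median 8.04) and 4.17 to 16.6 in WL (median 7.23), and it was lower in WL than in NC, with a log2 fold change of -0.96 ± 0.20 (edgeR adjusted p = 0.000464), though the libraries overlapped. SUGCT, over 643.7 kb, was linked to 5. PTPRN2, a receptor phosphatase gene of 668.5 kb, was linked to 4 and stayed below the expression filter, with medians of 0.736 TPM in NC, 0.449 in WG and 0.828 in WL. ALOX12B, a lipoxygenase gene of 10.3 kb, was also linked to 4, and was lower in WL than in NC at -1.57 ± 0.57 (adjusted p = 0.0246).

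Among bins with gained and kept regions, also picked for their values, the A-B index of chr2:143380001-143400000 averaged 1.23 in NC, against 2.90 in WG and 3.54 in WL.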
